A study of Mus musculus with 2 samples.

Results

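The mouse Mir15, Mir16, Mir195 and Mir497 microRNA (miRNA) family was described from 6 hairpin genes at 3 loci, out of 1973 gene rows measured. The members were chosen by name and position, through their Ensembl identifiers in the mouse GENCODE annotation (GRCm38), and not by their levels. Earlier results of these data were known at that time. They are Mir15a and Mir16-1 in the long noncoding RNA gene Dleu2, Mir15b and Mir16-2 in Smc4, and Mir195a with Mir497b at the Mir497-Mir195 locus. All 6 had a row in both deposited tables.

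The samples were limb tissue of B6NCrl embryos at embryonic day 10.5, pooled from males and females, with no treatment or allele named in the labels. Small RNA was sequenced in 2 libraries of this single group. The labels number them as biological replicates 1 and 2 and give pools of 69 and 51 embryos. Values are means over many embryos and over all cell types of the limb, so fewer cells of a type and less RNA per cell cannot be told apart. With 1 group and 2 libraries no test between conditions was possible, and each level is given per library with mean ± SD (n = 2).

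MiRNAs are cut from hairpin transcripts into short RNAs that guide Argonaute proteins to messenger RNAs, mostly by pairing through the seed, bases 2 to 8 of the mature strand. Mature strands with the same seed can bind the same target sites. The Mir15 and Mir16 family is known in mammals for repressing cyclins, cyclin-dependent kinases and the survival gene Bcl2. The human DLEU2 locus that carries the Dleu2 pair is often deleted in chronic lymphocytic leukaemia. Smc4, the host of the other pair, encodes a subunit of the condensin complex, which compacts chromosomes for mitosis.

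The mature strands below are shown because the shared seed defines the family and because the bases that follow it decide which loci can be told apart. They were taken from RefSeq (GRCm38.p6) and run 5′ to 3′, with the seed in capitals. The 5p arms of the family, and the strand annotated for Mir497b, read as follows.
miR-15a-5p (Mir15a): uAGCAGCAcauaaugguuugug
miR-15b-5p (Mir15b): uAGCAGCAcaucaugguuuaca
miR-16-5p (Mir16-1 and Mir16-2): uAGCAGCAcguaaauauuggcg
miR-195a-5p (Mir195a): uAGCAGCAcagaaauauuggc
miR-497a-5p (Mir497): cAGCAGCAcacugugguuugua
miR-497b (Mir497b): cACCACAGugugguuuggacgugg

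The first 9 bases were the same in the Mir15a, Mir15b, Mir16 and Mir195a strands. With positions counted from 1 at the 5′ end, miR-15b-5p differed from miR-15a-5p by 4 substitutions (A12C, G20A, U21C and G22A). From miR-16-5p to miR-195a-5p there were 2 (G10A and U11G) over the 21 bases compared. Of these strands miR-16-5p was the one encoded by 2 genes. Mir497b lies on the strand opposite to Mir497, and its annotated mature strand does not carry the family seed.

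The hairpins of Mir16-1 and Mir16-2 are shown because their counts are the ones that the shared strand touches. The longest run of bases that both contain was 23 bases long, in capitals here, and held all of miR-16-5p. The same run was found in 0 other hairpins of the 1005 in the RefSeq table.
Mir16-1: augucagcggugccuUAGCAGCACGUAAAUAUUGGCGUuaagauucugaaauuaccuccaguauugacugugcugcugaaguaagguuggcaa
Mir16-2: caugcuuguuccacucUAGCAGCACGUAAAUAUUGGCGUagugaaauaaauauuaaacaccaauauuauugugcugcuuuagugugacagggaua

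A read inside that run matches both genes, and the tables put reads that matched several places in a row of their own. Such reads numbered 2202818 in replicate 1 and 1831161 in replicate 2, from all sequences together, and how many were miR-16-5p was not analysed here. The counts of Mir16-1 and Mir16-2 are thus no measure of miR-16-5p. The 3p arms below differ between the 2 genes, so reads from them can be placed at one gene; which arm the counted reads came from was not measured.
miR-16-1-3p (Mir16-1): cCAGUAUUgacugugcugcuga
miR-16-2-3p (Mir16-2): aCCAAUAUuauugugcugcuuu

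Among the other family hairpins the longest runs in common with any hairpin of the table were shorter than a mature strand. They were 10 bases for Mir15b, 12 for Mir497 and 16 for Mir195a, the last with Mir195b on chromosome 2. The Mir15a hairpin was not compared, as the table has only its mature strands. These comparisons cover annotated hairpins and not the whole genome.

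By the annotation (GRCm38, 1-based), Mir15a lies on chromosome 14 at 61632027 to 61632110 and Mir16-1 at 61631880 to 61631972, both on the minus strand. There are 54 bases between them. Both are spanned by 8 Dleu2 transcripts and overlap an exon in 0 of them, so they are intronic. Mir15b lies on chromosome 3 at 69009772 to 69009835 and Mir16-2 at 69009902 to 69009996, on the plus strand with 66 bases between them. They are intronic in all 5 Smc4 transcripts that span them. Mir195a is on chromosome 11 at 70235042 to 70235135, on the plus strand, with no host gene annotated on its strand. The nearest annotated protein-coding gene beyond it, on the opposite strand, ends 70 bases away.

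Mir497b is annotated on chromosome 11 at 70234692 to 70234816 on the minus strand, 225 bases from Mir195a. The interval contains all 84 bases of Mir497, at 70234717 to 70234800 on the plus strand, including both of its mature arms. Mir497 has no row in the tables analysed here. Plus-strand reads at this place therefore appear as antisense counts of Mir497b, and that column was used for it. No other annotated miRNA gene lies within 10 kb of a member.

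**Figure D1:**
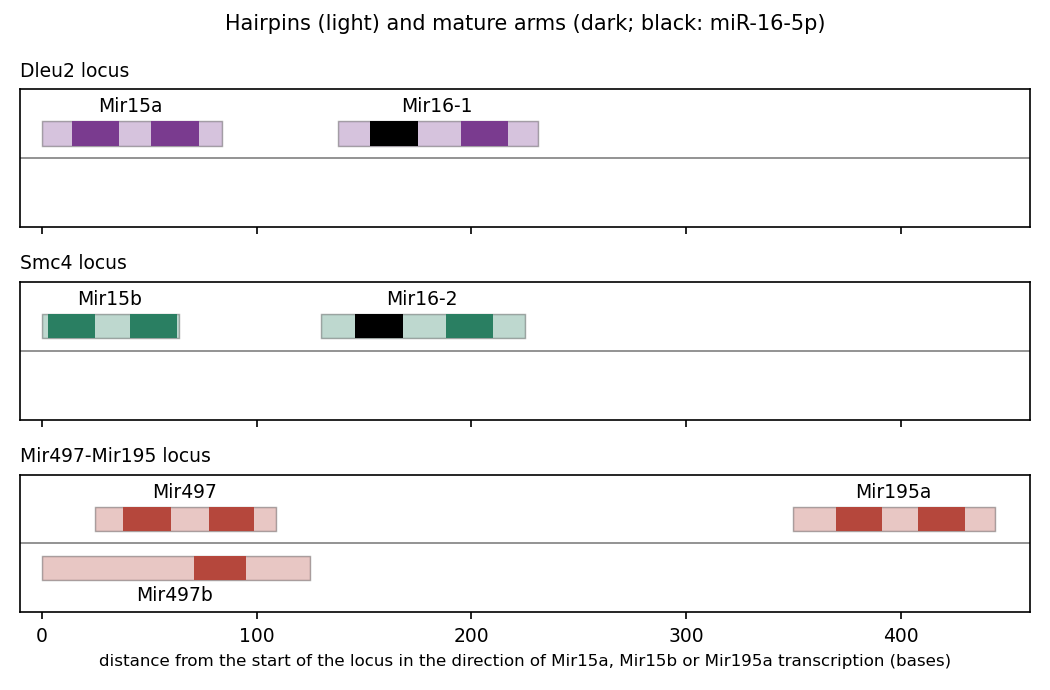
Hairpins and mature arms of the 3 loci to scale, with distance in bases from the first base of each locus on the horizontal axis. Light boxes are hairpins and dark boxes mature arms; the black boxes mark miR-16-5p, present in both Mir16-1 and Mir16-2. Boxes below the line are on the opposite strand: Mir497b there overlaps all of Mir497, and Mir195a lies 225 bases from it.

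Levels are in CPM, the counts per 1000000 sense counts in all gene rows, which totalled 3581672 in replicate 1 and 3576482 in replicate 2. They are reads per hairpin and are not divided by its length. A count of 0 would allow a level of at most 0.838 CPM in the first library and 0.839 CPM in the second (3 counts). Intervals are 95% exact binomial and, like these limits, cover counting error only, as reads copied by PCR are not independent molecules. The tissue label was checked against marker miRNAs of the limb axis and mesenchyme. The axis list, led by Mir10b at 69833 ± 19514 CPM and Mir196b at 63953 ± 14163 CPM (SD, n = 2), summed to 174196 ± 10824 CPM (5 of 5 detected), with Mir196a-1 lowest at 39.5 CPM. The mesenchyme list summed to 20469 ± 3340 CPM (4 of 4), of which Mir214 had 18552 ± 2773 CPM and Mir199a-1, the lowest, 20.8 CPM. Markers of other cell types were also present, and the single endothelial marker, Mir126a, was above the mesenchyme sum on average, at 25195 ± 2138 CPM. The sums were 11188 ± 1024 for epithelium (5 of 5) and 374 ± 149 for the erythroid list (3 of 3). Leukocyte markers reached 671 ± 84.7 CPM (2 of 3), muscle 104 ± 37.2 (3 of 5), neural 159 ± 14.6 (2 of 5) and liver 15.2 ± 13.6 (1 of 1). The numbers detected are out of the listed genes with a row, which were 3 of 4 for leukocytes and 5 of 6 for the neural list. All marker levels are of uniquely placed reads, so a marker whose mature strand is shared by several genes may be counted too low. Mir1a-1 of the muscle list and Mir124a-1 of the neural list were at 0 in such reads. The part of any of these cell types in the family's levels was not tested.

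All 6 members passed the detection minimum of 10 counts in both libraries when Mir497b was read from its antisense column. Over all rows 17.6% reached that minimum in the sense column. In the sense column alone 5 of the 6 did, since Mir497b had 2 sense counts in replicate 1 and 3 in replicate 2. Antisense counts of this size were uncommon: 14 of 1973 rows (0.71%) had at least 10 in both libraries.

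Mir15a, the Dleu2 member whose 5p strand is unique in the table, had the highest level of the 6 members in uniquely placed reads. It had 2849 CPM in replicate 1 (10203 counts, interval 2794 to 2904 CPM) and 2519 CPM in replicate 2 (9008 counts, 2467 to 2571 CPM), a mean of 2684 ± 233 CPM. By the sense totals it was lower in replicate 2, a direction that turned under the other scalings given below. Its rank by mean level among all rows was 55.

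Mir16-1, its neighbour in the same intron, had 1626 CPM in replicate 1 (5824 counts, interval 1585 to 1668 CPM) and 2058 CPM in replicate 2 (7360 counts, 2011 to 2105 CPM). Its mean was 1842 ± 305 CPM, rank 65. Here replicate 2 was the higher library, the reverse of Mir15a. The level covers reads placed at this gene alone, without those of miR-16-5p that match Mir16-2 as well.

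At the Smc4 locus Mir15b had 1285 CPM in replicate 1 (4601 counts, interval 1248 to 1322 CPM) and 1063 CPM in replicate 2 (3800 counts, 1029 to 1097 CPM), with a mean of 1174 ± 157 CPM and rank 84. Mir16-2 had 374 CPM in replicate 1 (1338 counts, interval 354 to 394 CPM) and 407 CPM in replicate 2 (1456 counts, 386 to 429 CPM), with a mean of 390 ± 23.7 CPM and rank 133. As at Dleu2, by the sense totals, the Mir15 hairpin was lower and the Mir16 hairpin higher in replicate 2. For Mir16-2 the counting intervals overlapped, and for Mir15b the other scalings put the libraries nearly level.

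At the Mir497-Mir195 locus both members were below Mir15a, Mir16-1 and Mir15b. In mouse heart this locus is known for its part in the exit of muscle cells from the cell cycle around birth. Mir195a had 330 CPM in replicate 1 (1182 counts, interval 311 to 349 CPM) and 458 CPM in replicate 2 (1639 counts, 436 to 481 CPM), a mean of 394 ± 90.7 CPM and rank 132. The antisense counts of Mir497b, on the Mir497 strand, came to 440 CPM in replicate 1 (1577 counts, interval 419 to 463 CPM) and 562 CPM in replicate 2 (2009 counts, 537 to 587 CPM). Their mean was 501 ± 85.9 CPM, which would be rank 122 among the sense levels. Both members were higher in replicate 2. Among the antisense counts of all rows Mir497b ranked 9 in replicate 1 and 8 in replicate 2, with 1.87% and 3.25% of them.

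**Figure D2:**
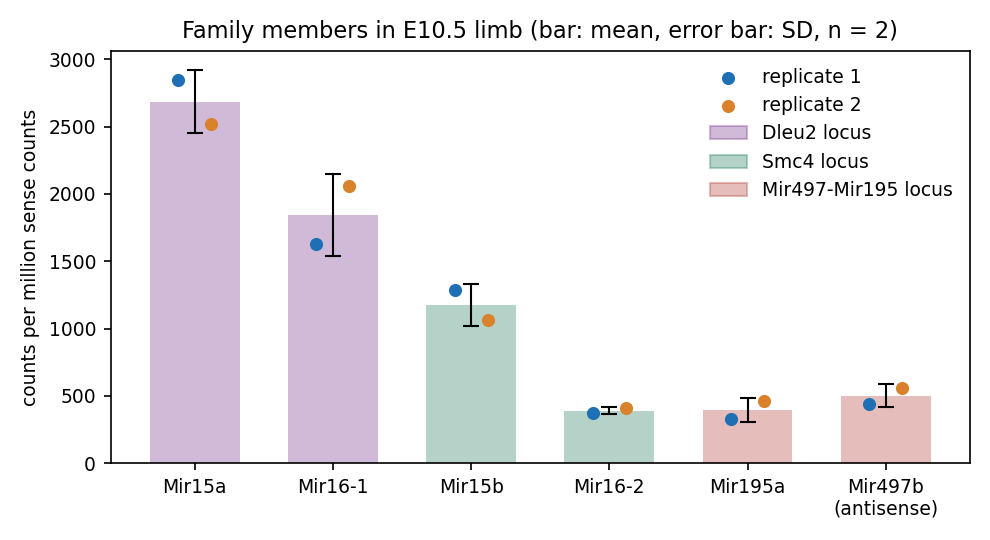
Level of each member in CPM of sense counts (vertical axis, from 0), coloured by locus, with Mir497b from its antisense counts. Points are the 2 libraries, bars their mean and error bars the SD (n = 2): Mir15a is highest at 2684 ± 233 CPM, while Mir16-2, Mir195a and Mir497b lie between 390 and 501 CPM.

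The order by mean level of uniquely placed reads was Mir15a, Mir16-1, Mir15b, Mir497b, Mir195a and Mir16-2. The gap between neighbours exceeded the larger of their SDs in 4 of the 5 steps, and these 4 had the same direction in both libraries. The exception was Mir195a over Mir16-2, with a gap of 3.81 CPM against an SD of 90.7 CPM and opposite directions in the 2 libraries. The step from Mir497b to Mir195a was narrow, 107 CPM against an SD of 90.7 CPM.

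In uniquely placed reads the total of the 6 members, called the family total here, was 6903 CPM in replicate 1 and 7066 CPM in replicate 2. The mean was 6985 ± 115 CPM, with Mir497b from antisense counts, which are not among the sense counts. The members without Mir497b held 0.648% ± 0.00294 of the sense counts. The family total leaves out the miR-16-5p reads that match both Mir16 genes, so its level and SD do not describe the whole family. The SD of this total was smaller than that of each of its 3 largest members. The locus shares leave out the same reads. The Dleu2 locus held 64.8% of this total in each library (mean 4526 ± 72 CPM). The Smc4 locus held 24.02% in replicate 1 and 20.8% in replicate 2 (1564 ± 133 CPM), and the Mir497-Mir195 locus 11.2% and 14.4% (895 ± 177 CPM).

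Within a library the loci can be compared without any scaling. The Smc4 locus was below the Dleu2 locus by a log2 ratio of -1.43 in replicate 1 (interval -1.48 to -1.39) and -1.64 in replicate 2 (-1.68 to -1.59), a mean of -1.54 ± 0.15, so Dleu2 was 2.90-fold higher. Since both loci contain a Mir16 gene, the ratio was also taken from the Mir15 hairpins alone. Mir15b was below Mir15a by -1.15 (-1.20 to -1.10) and -1.24 (-1.30 to -1.19), a mean of -1.20 ± 0.07, which is 2.29-fold in favour of Mir15a. Mir16-2 was below Mir16-1 by -2.12 (-2.21 to -2.04) and -2.34 (-2.42 to -2.26), a mean of -2.23 ± 0.15. By uniquely placed reads Dleu2 was thus above Smc4 by both hairpins in both libraries. The size of the difference depended on the hairpin read. The Mir16 counts leave out reads that match both Mir16 genes, so their ratio is not separate evidence for the order of the loci. The 2.90-fold figure contains these counts as well. Only the ratio of Mir15b to Mir15a is free of them.

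The Mir497-Mir195 locus was below Dleu2, at log2 ratios of -2.54 (-2.60 to -2.48) and -2.17 (-2.22 to -2.11) in the 2 libraries, with a mean of -2.35 ± 0.26, so that Dleu2 was 5.10-fold higher. Without the Mir16 hairpins the mean was -1.60. The Smc4 locus stood above the Mir497-Mir195 locus by 1.11 (1.04 to 1.17) and 0.53 (0.47 to 0.59). By uniquely placed reads the 3 loci therefore had the same order in both libraries, with the distance between the lower pair less settled than the rest. Without Mir16-2 that distance nearly closed in replicate 2, where Mir15b had 1063 CPM against 1020 CPM for the Mir497-Mir195 locus. In replicate 1 the levels were 1285 and 770 CPM.

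Neighbouring hairpins of a locus are thought to come from one primary transcript, yet their counts differed. Mir15a was above Mir16-1, at log2 ratios of 0.81 (0.76 to 0.86) in the first library and 0.29 (0.25 to 0.34) in the second, and made up 63.7% and 55.03% of the counts of the Dleu2 pair. Mir15b was above Mir16-2 by 1.78 (1.69 to 1.87) and 1.38 (1.30 to 1.47), with 77.5% and 72.3% of the Smc4 pair. Both Mir15 hairpins were thus the larger part of their pair, by uniquely placed reads, and at both loci that part was smaller in replicate 2. The change between libraries was -0.52 for the Dleu2 pair and -0.40 for the Smc4 pair.

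Mir195a was below the antisense counts of Mir497b by -0.42 (-0.53 to -0.31) and -0.29 (-0.39 to -0.20), a mean of -0.35 ± 0.09. These are ratios of reads per hairpin. Per base the direction depended on the length given to the antisense counts. The mean log2 ratio was 0.057 with the 125 bases of the Mir497b interval. It was -0.52 with the 84 bases of Mir497, on whose strand the antisense counts lie. Mir195a is 94 bases long. These lengths are from GENCODE M21, and whether the intervals counted over in GENCODE M4 were the same was not checked.

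**Figure D3:**
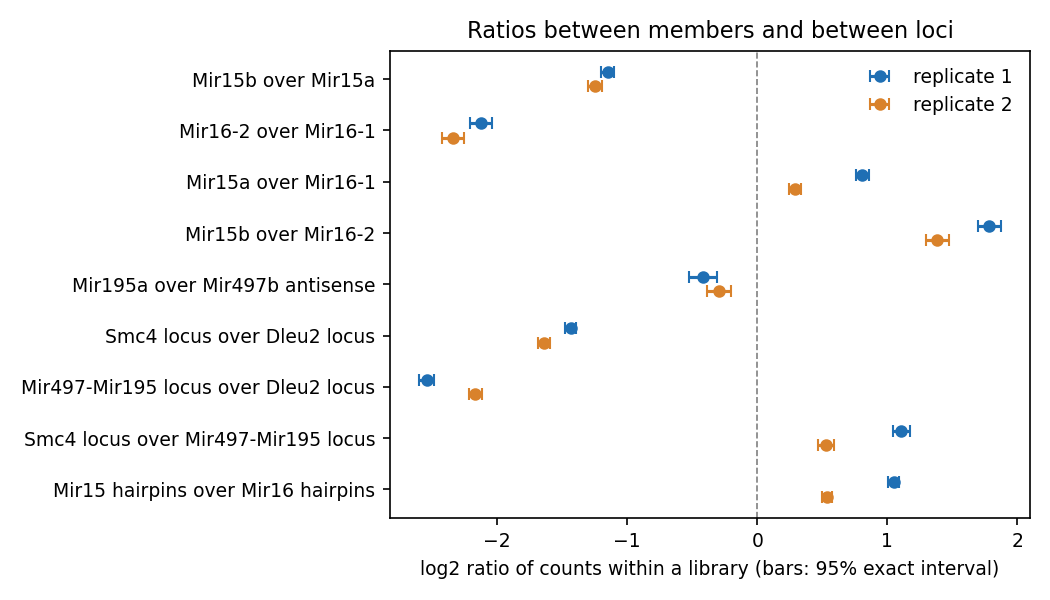
Log2 ratios of counts within each library (horizontal axis) for pairs of members, pairs of loci and the summed Mir15 and Mir16 hairpins; points are libraries and bars 95% exact intervals of counting error. The Mir15 over Mir16 ratios lie above 0 at both loci and are lower in replicate 2, from 0.81 to 0.29 for Mir15a over Mir16-1 and from 1.78 to 1.38 for Mir15b over Mir16-2. Counts of the Mir16 hairpins leave out reads that match both genes.

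Many other neighbouring hairpins differed more. Over 108 pairs of adjacent same-strand hairpins within 10 kb, both detected, the median absolute log2 ratio was 2.76. Of these pairs, 95 had a larger ratio than Mir15a and Mir16-1 and 80 a larger one than Mir15b and Mir16-2, both of which are among the 108. The median absolute change of the ratio between the libraries was 0.35, and 30 and 44 pairs changed more than the Dleu2 and Smc4 pairs did. Many of the other pairs also hold genes with shared strands, and pairs of one cluster share members, so this is a description only.

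Between the libraries no member differed by more than 2-fold (0 of 6), where 10.8% of the 250 genes with a mean count of at least 100 did. The log2 ratio of replicate 2 to replicate 1 was -0.18 (-0.22 to -0.14) for Mir15a and -0.27 (-0.34 to -0.21) for Mir15b. It was 0.34 (0.29 to 0.39) for Mir16-1, 0.12 (0.02 to 0.23) for Mir16-2, 0.47 (0.36 to 0.58) for Mir195a and 0.35 (0.26 to 0.45) for Mir497b antisense. The median over the 250 genes was -0.27, with an SD of 0.66, and over the 6 members it was 0.23.

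Scaling by TMM factors (the trimmed mean of M-values of edgeR) raised every ratio by 0.28 and scaling by DESeq2 size factors raised it by 0.27. Relative to the median of all genes, Mir195a stood at 0.74, Mir497b at 0.62, Mir16-1 at 0.61 and Mir16-2 at 0.39, while Mir15a stood at 0.09 and Mir15b at -0.0029. The sign of the Mir15a ratio therefore turned with the scaling (0.10 under both), and Mir15b came to 0.0077 with TMM and -0.0011 with DESeq2. The other 4 members were positive under all 3 scalings. Of the 250 genes, 66.8% had a negative ratio by the sense totals, and their share under the other scalings was not analysed. In every scaling the Mir16 hairpins were higher in replicate 2 relative to the Mir15 hairpins of the same locus, since these ratios do not depend on it.

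**Figure D4:**
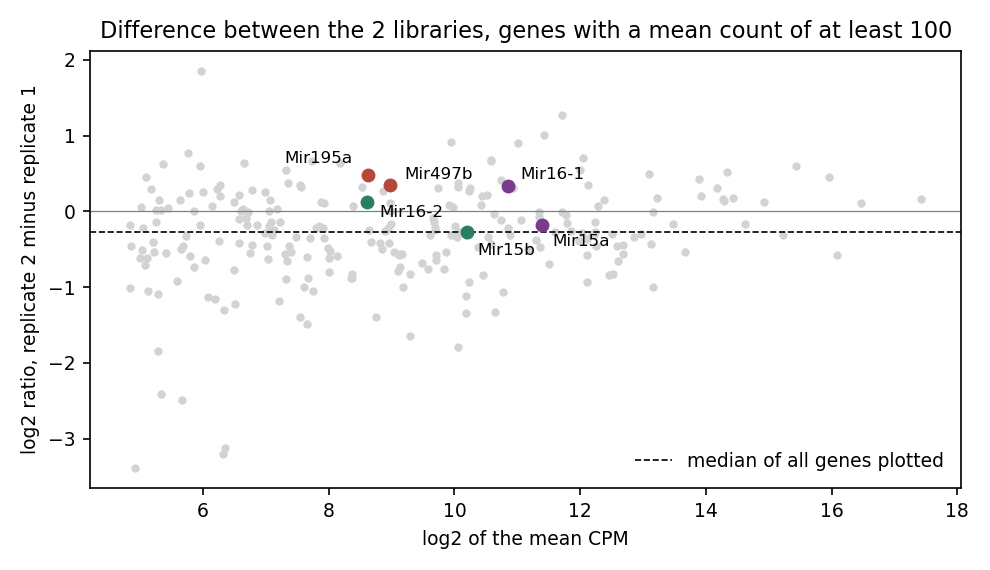
Log2 ratio of replicate 2 to replicate 1 (vertical axis) against the log2 of the mean CPM (horizontal axis) for the 250 genes with a mean count of at least 100 (grey) and the members (coloured by locus). The dashed line is the median of the grey genes at -0.27; Mir15a and Mir15b lie near it and the other 4 members above 0.

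Seed sharing reached beyond the 6 members, so by the seed the family is larger than the genes summed as the family total here. According to RefSeq, 11 genes had a mature strand with the seed of Mir15a, of which 5 lie away from the 3 loci: Mir322, Mir195b, Mir6342, Mir6353 and Mir6419. The 5p strand of Mir322, from a cluster on chromosome X, has the same seed followed by other bases.
miR-322-5p (Mir322): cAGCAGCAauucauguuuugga
Mir322 had 35302 CPM in replicate 1 and 53519 CPM in replicate 2. In both libraries this was above the family total, which leaves out the miR-16-5p reads matching both Mir16 genes. The log2 ratio of Mir322 to that total was 2.35 (2.33 to 2.37) and 2.92 (2.90 to 2.94), or 5.11-fold and 7.57-fold. Mir195b had 0 counts in replicate 1 and 1 in replicate 2, and Mir6342, Mir6353 and Mir6419 had 0 counts in both.

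All genes with the seed summed to 42205 CPM in the first library and 60586 CPM in the second, a mean of 51395 ± 12997 CPM. The 6 members made up 16.4% and 11.7% of that sum, with Mir497 read from the antisense counts, and Mir322 83.6% and 88.3%. These shares leave out the reads of miR-16-5p that matched both Mir16 genes. How far the family's part would grow with them was not analysed here, so the shares describe uniquely placed reads and not the seed as a whole.

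**Figure D5:**
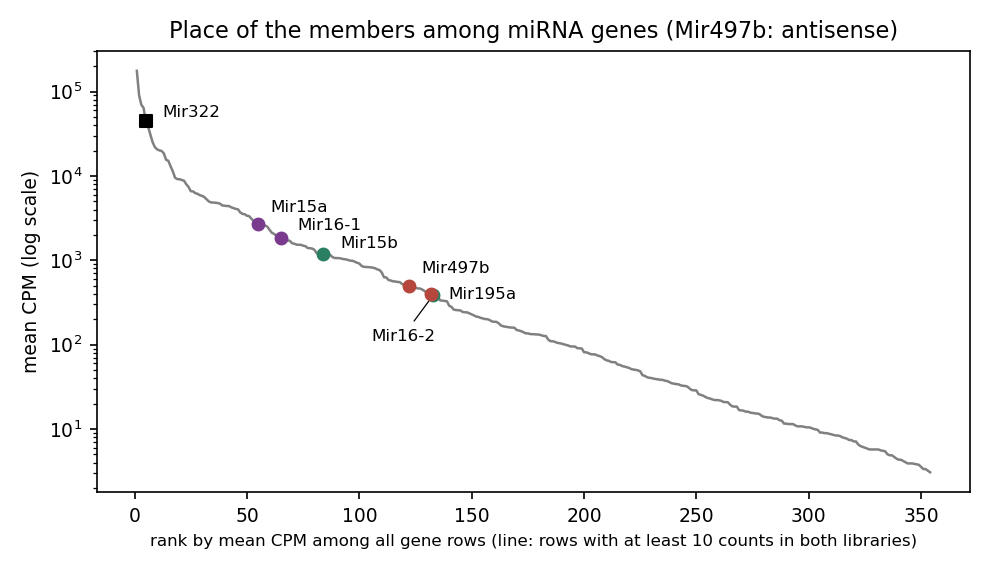
Mean CPM (vertical log axis) against rank by mean CPM (horizontal axis) for the rows with at least 10 counts in both libraries (grey line), with the members coloured by locus, Mir497b by its antisense counts, and Mir322 as a black square. Mir15a stands at rank 55 with 2684 CPM and Mir16-2 at rank 133 with 390 CPM, while Mir322 stands far above them at 44410 CPM.

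The genes nearest in level were found for the leading member of each locus, as the distance in log2 CPM over the 2 libraries. They were Mir872 (distance 0.10) and Mir324 (0.13) for Mir15a, Mir674 (0.04) and Mir467c (0.14) for Mir15b, and Mir671 (0.16) and Mir450b (0.17) for Mir497b antisense. Mir674 had 1287 CPM in replicate 1 and 1037 CPM in replicate 2, against 1285 and 1063 CPM for Mir15b. With 2 libraries this likeness describes level only.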

How the data were processed

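Per the deposited readme texts, reads of each library were aligned to mm10 and counted over GENCODE M4 without pooling. The aligner, counting program and trimming were not given in the sources used here. The authors deposited raw counts per gene in 3 columns, which by their values are both strands, sense and antisense, with 4 rows for reads given to no gene. Reads matching several places are in such a row (32.3% and 31.2% of mapped reads). The libraries held 10064833 and 7218612 reads. Symbols came from GENCODE M21 (1894 identifiers matched, 79 did not), and sequences from RefSeq, with mature strands for 6 members and hairpins for 5.

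The members, lists and comparisons were chosen with earlier results of these data known. Named genes are the members, miRNA genes within 10 kb, genes with the Mir15a seed, the 2 nearest in level per locus, and Mir10b, Mir196b and Mir214. Other marker genes were named after their values were seen. Log2 values carry a prior count of 1. Scaling alternatives were edgeR 4.0.16 and DESeq2 1.42.0 factors (R 4.3.3). Other steps used scipy 1.17.1, pandas 2.3.3 and numpy 2.4.6 in Python 3.11.15. The scaling factors, the exact intervals and the log2 ratios between libraries were checked on simulated counts. These held counting error only, so the check does not cover PCR copies or the spread between the libraries. No test across libraries was made.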

Additional observations from a re-analysis of the deposited data

How the results depend on the processing

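With all mapped reads as the total, in place of sense counts in genes, the family mean was 3965 CPM and that of all genes with the seed 29532 CPM; without Mir497b the family mean was 6484 CPM. Without the Mir16 hairpins the log2 ratio to Dleu2 was -1.20 for the Smc4 locus and -1.60 for the Mir497-Mir195 locus. Per base of annotated hairpin, an alternative chosen after seeing the data, the log2 ratios were -0.80 for Mir15b over Mir15a, 2.15 for Mir15b over Mir16-2, -1.38 for the Smc4 and -2.66 for the Mir497-Mir195 locus over Dleu2. Mir195a over Mir497b antisense reversed, to 0.057, with the length of Mir497b; with that of Mir497 it was -0.52, and the Mir497-Mir195 locus was at -2.36. Of 75 alternative values that used both libraries, 19 moved further than the spread of the libraries and 1 reversed. The other 55 moved by less or, for counts, stayed within the set limit. Many of the 55 could hardly move. Counting both strands changes nothing for members with 0 antisense counts, such as Mir15a. TMM and DESeq2 factors nearly cancel in a mean over 2 libraries. The 55 are therefore no measure of stability. Leaving out a library gives the other library's value, which by construction lies within the SD of the mean and says nothing of stability: 42205 to 60586 CPM for all genes with the seed and 0.29 to 0.81 for Mir15a over Mir16-1, for example. For the 2 Mir16 genes the limit is not depth, since reads that match both enter neither count at any depth. No paired analysis was possible because there is 1 group.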
